A study of Homo sapiens with 20 samples.

Results

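The glutathione transferases examined here are the members of the human family named GSTA1, GSTA2, GSTA4, GSTM3, GSTM4, GSTP1, GSTK1, GSTZ1, GSTO1 and MGST1, followed across the differentiation of HepaRG cells. A probe belonged to them if the RefSeq accession that names it on the array maps to one of these 10 symbols. This gave 11 probes for 9 genes, of 42405 probes and 35372 genes on the array, and all 9 genes passed the filter on dim signals that left 22062 genes in the tests. Both totals of genes count a probe without a symbol under the name the array gives it. No probe used here carries an accession of GSTA1, so GSTA1 was not analysed here. HepaRG is a line of bipotent progenitors from 1 human liver tumour, and the labels call the cells hepatic stem cells. Total RNA was hybridised to 1-colour Agilent arrays, with 4 biological replicates in each of 5 conditions. D4 were cells at day 4 after seeding and D15 cells at day 15. D30 − DMSO cells were kept to day 30 without dimethyl sulfoxide, the solvent used to mature the cells. D30 + DMSO cells received 2% DMSO from day 15 to day 30. D34 ± DMSO cells received the same and then spent 4 days without it. Every condition shared a William's E medium with serum, insulin and hydrocortisone. All cells came from 1 line, so the replicates sample cultures and not donors.

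Glutathione transferases join the tripeptide glutathione to reactive compounds, which can then be exported and broken down outside the cell. The soluble enzymes fall into classes named by Greek letters, the kappa enzyme resides in mitochondria and peroxisomes, and the microsomal enzymes sit in membranes. Hepatocytes are rich in the alpha class, while the pi class enzyme is known in liver for its presence in bile duct cells and its near absence from hepatocytes. Levels are given as log2 of the signal relative to the 75th percentile of each array, so that 1 unit is 2-fold. They can be compared between conditions for 1 probe, and not between probes. A member rose or fell where limma's adjusted p was below 0.005 and the change exceeded 2-fold. The arrays measured RNA of whole cultures, in which fewer cells of a type and less RNA per cell cannot be told apart.

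Marker genes of the cells were read on the same arrays. All 10 hepatocyte markers, such as ALB, rose from D4 to D15 and none passed the test when DMSO was added or removed. Their mean level ranged over the arrays from 1.75 to 2.87 at D4, 5.81 to 6.12 at D30 − DMSO, 6.33 to 6.79 at D30 + DMSO and 5.91 to 6.22 at D34 ± DMSO. Of the proliferation markers 8 of 8 fell from D4 to D15, and all 8 rose 4 days after DMSO was removed, when their mean level moved from between −2.78 and −1.59 to between 0.42 and 1.41. Biliary and progenitor markers gave 6 measured genes, of which SOX9 rose and SPP1 fell on DMSO addition. Mesenchymal markers gave 4 measured genes, none of which passed on either DMSO step. The part of these groups in the levels below was not tested. The arrays lay on 4 slides in 2 scan sessions, with replicate 4 of every condition on slide 4, next to the third replicate of D15 and that of D30 + DMSO. All arrays of D30 + DMSO lay on slides 3 and 4. Each other condition also had arrays on slide 1 or 2, so comparisons with D30 + DMSO were not balanced over slides. Replicates of a condition correlated at r between 0.955 and 0.992 over the genes tested that had a value on every array.

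GSTA2 encodes an alpha class enzyme abundant in liver. GSTA1 and GSTA2 lie close together on chromosome 6, and their start regions are shown because they are nearly the same. These stretches lie upstream of the transcripts and say nothing of what a probe binds. RefSeq on GRCh38.p14 places GSTA2 at chr6:52750087-52763475 and GSTA1 at chr6:52791371-52803816, both on the minus strand. Of the 250 bases before the start site of each, 7 differ, an identity of 97.2%. The stretches lie at chr6:52803817-52804066 for GSTA1 and chr6:52763476-52763725 for GSTA2, and they are written 5′ to 3′ on the minus strand with capitals for a match to the C/EBP site TTGCNNAA:
GSTA1: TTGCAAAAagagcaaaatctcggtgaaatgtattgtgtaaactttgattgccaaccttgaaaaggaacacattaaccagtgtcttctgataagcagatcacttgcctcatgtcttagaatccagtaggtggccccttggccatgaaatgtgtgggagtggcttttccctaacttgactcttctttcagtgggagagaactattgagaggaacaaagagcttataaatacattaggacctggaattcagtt
GSTA2: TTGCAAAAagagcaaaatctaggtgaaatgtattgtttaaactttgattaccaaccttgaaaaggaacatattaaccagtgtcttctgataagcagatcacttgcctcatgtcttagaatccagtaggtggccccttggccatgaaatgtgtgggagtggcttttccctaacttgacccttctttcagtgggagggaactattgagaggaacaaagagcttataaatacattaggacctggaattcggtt
The match begins at the first printed base in both genes. Among the other members, matches on the other strand were found in the windows of GSTM3 (bases 39 to 46) and GSTK1 (bases −186 to −179). Such a match, on either strand, was present in 10.5% of 35116 RefSeq start windows of 300 bases. The antioxidant response element core TGACNNNGC had no match in the windows of GSTA1 and GSTA2, which says only that these letters are not there. Probe sequences were not used here, and how far transcripts of GSTA1 or of the related GSTA5 add to the signal of the GSTA2 probe was not tested.

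The GSTA2 signal was lowest at D4, with 2.44, 3.41, 2.82 and 2.90 in replicates 1 to 4. At D15 the arrays stood at 4.84, 4.98, 5.30 and 5.34. The arrays of D30 − DMSO gave 5.18, 5.09, 5.01 and 4.62. No D4 array reached any array of a later condition, whereas D15 and D30 − DMSO overlapped.
With DMSO the 4 arrays of D30 + DMSO stood at 6.05, 5.84, 6.34 and 6.07. After its removal the arrays of D34 ± DMSO gave 5.12, 4.45, 5.06 and 4.33. All 4 arrays with DMSO were thus above every array of the other conditions, and the arrays after removal overlapped those never exposed to it.

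From D4 to D15 the GSTA2 mean rose from 2.89 ± 0.40 to 5.11 ± 0.24 (SD, n = 4), a 4.67-fold increase with a log2 difference of 2.22 (SE 0.22, adjusted p = 3.84e-07 in limma). GSTA2 was the 1 member of 9 that rose between these days, where 9.54% of all genes changed and 5.82% rose. Between D15 and D30 − DMSO no member passed, where 0.00453% of all genes were called, and the GSTA2 difference was −0.14 (95% interval −0.60 to 0.32).

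DMSO at matched day 30 raised GSTA2, with a log2 difference of 1.10 and an SE of 0.22, from 4.98 ± 0.25 to 6.07 ± 0.21 (SD, n = 4), which is 2.14-fold with an adjusted p of 0.00135 in limma. It was again the only member of 9 to rise, against 5.89% of all genes called and 1.74% higher. The call was lost when replicate 4 of D30 − DMSO (difference 0.98, adjusted p = 0.00649) or replicate 3 of D30 + DMSO (1.01, adjusted p = 0.00709) was left out of the limma fit, and the methods' t-test gave an adjusted p of 0.00813. Within slides the difference was 0.76 on slide 3 and 1.59 on slide 4.

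From D30 + DMSO to D34 ± DMSO, 4 days after removal, GSTA2 fell 2.52-fold (log2 difference −1.33, SE 0.22, adjusted p = 0.000182 in limma). The methods' t-test gave an adjusted p of 0.0147 and so no call. GSTA2 and GSTZ1 were the 2 members of 9 that fell, where 7.04% of all genes were called and 2.12% were lower. Within slides the GSTA2 difference was −0.85 on slide 3 and −1.88 on slide 4. Against the never exposed cells of D30 − DMSO, the D34 ± DMSO mean of 4.74 ± 0.41 differed by −0.24 (95% interval −0.69 to 0.22, adjusted p = 0.768 in limma). No member was called in that comparison, which called 1.53% of all genes. Over the whole protocol GSTA2 rose 9.08-fold from D4 to D30 + DMSO (log2 difference 3.18, adjusted p = 1.35e-09 in limma). limma's F-test over the 5 conditions, with a Bonferroni threshold of 0.001 and a 3-fold range required, called 5.29% of genes and among the members only GSTA2, at an adjusted p of 1.6e-05.

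**Figure D1:**
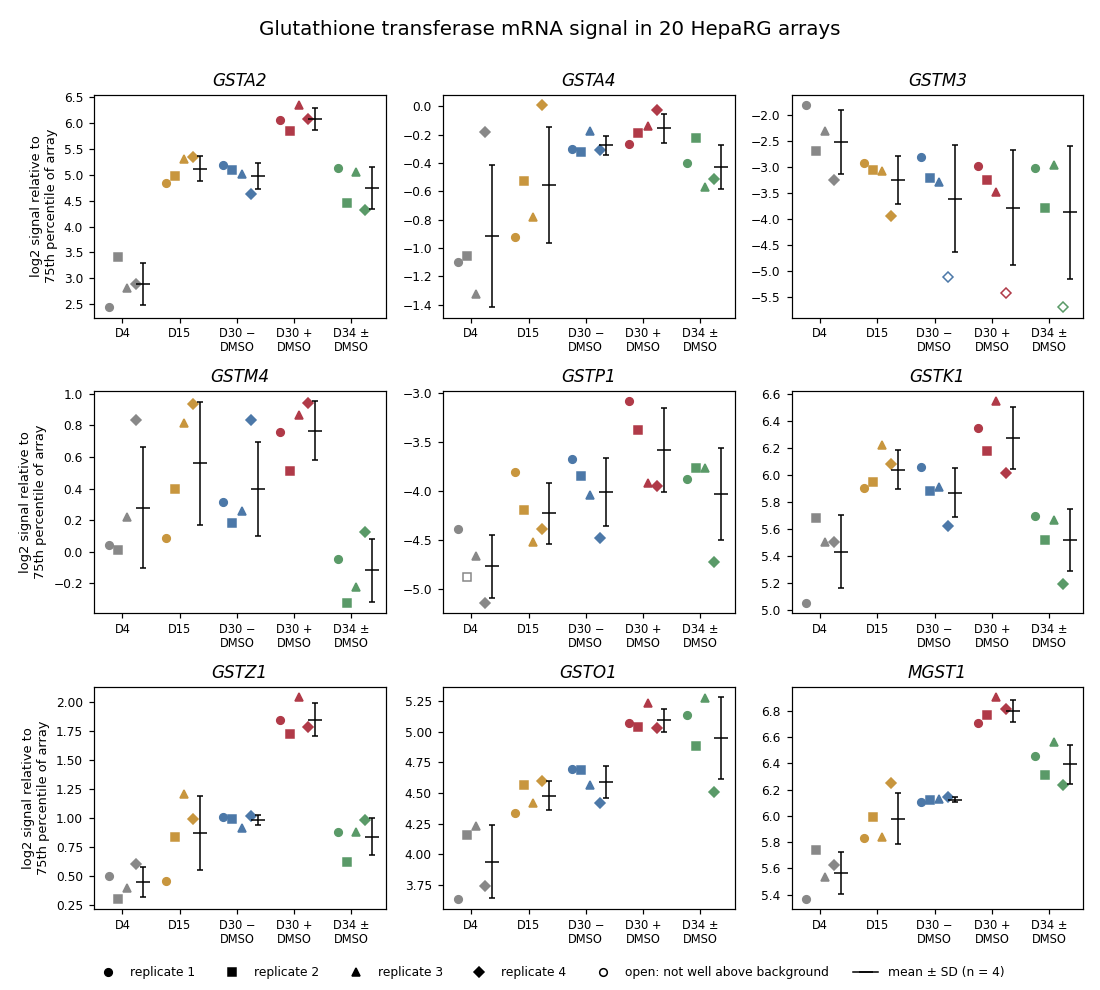
Each panel plots 1 gene, with the log2 signal relative to the 75th percentile of its array on the y axis and the 5 conditions on the x axis. Marker shapes give the replicate, open markers an array on which the probe was not well above background, and the black bar the mean ± SD of 4 arrays. GSTA2, GSTZ1 and MGST1 stand highest on the 4 arrays of D30 + DMSO. GSTO1 at D34 ± DMSO overlaps both conditions of day 30, and replicate 4 of GSTM3 lies apart in the last 3 conditions.

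GSTA4, the alpha class enzyme known for handling lipid aldehydes such as 4-hydroxynonenal, had 2 probes at chr6:52977953-52995284. Its means, in time order with the DMSO-free arm of day 30 before the DMSO arm, were −0.92, −0.56, −0.28, −0.16 and −0.43 with the brighter probe, and neither probe passed in any comparison. The difference from D4 to D30 + DMSO was 0.76 (SE 0.21, adjusted p = 0.00756 in limma) with the brighter probe and 0.60 (adjusted p = 0.0886) with the other. Replicate 4 of D4 stood at −0.18, above the other D4 arrays, which lay between −1.32 and −1.05. Without that array the difference was 1.00 with an adjusted p of 0.000161 in limma, which passes both thresholds. On DMSO addition the difference was 0.12 (95% interval −0.33 to 0.57).

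The mu class members lie close together on chromosome 1. GSTM4 (chr1:109656099-109667727) had means of 0.28, 0.56, 0.40, 0.77 and −0.12 in the order of the conditions. At D34 ± DMSO its arrays gave −0.05, −0.33, −0.22 and 0.12, below all arrays of D30 + DMSO at 0.76, 0.51, 0.86 and 0.94. The difference of −0.89 (SE 0.21, adjusted p = 0.00499 in limma) was 1.85-fold and so under the required fold. Within slides it was −0.77 on slide 3 and −0.78 on slide 4. Of the neighbouring levels of GSTM4 in rank order, none differed beyond the test. Replicate 4 gave the highest GSTM4 level in each of the 5 conditions.

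GSTM3 (chr1:109733937-109741038), the mu class member known from testis and brain, had means of −2.51, −3.25, −3.60, −3.78 and −3.86 and no call. At D4 its arrays gave −1.81, −2.69, −2.30 and −3.25. At D30 + DMSO they gave −2.98, −3.24, −3.47 and −5.42. Replicate 4 was the lowest in every condition, and in D30 − DMSO, D30 + DMSO and D34 ± DMSO, at −5.12, −5.42 and −5.70, it was not well above background, so that 3 of 4 arrays measured the gene there. Replicate 3 of D15 and of D30 + DMSO, on the same slide as the replicates 4, stood at −3.08 and −3.47. The spread left the change from D4 to D30 + DMSO at −1.27 with a 95% interval of −2.57 to 0.04 (adjusted p = 0.116 in limma).

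GSTP1 encodes the pi class enzyme and its probe was dim in these cultures. Its start region on chromosome 11 is shown for the antioxidant response element core TGACNNNGC, in capitals, which contains the AP-1 site TGANTCA. The 250 bases at chr11:67583562-67583811 of GRCh38.p14, plus strand, from RefSeq, end at the base before the start site:
GSTP1: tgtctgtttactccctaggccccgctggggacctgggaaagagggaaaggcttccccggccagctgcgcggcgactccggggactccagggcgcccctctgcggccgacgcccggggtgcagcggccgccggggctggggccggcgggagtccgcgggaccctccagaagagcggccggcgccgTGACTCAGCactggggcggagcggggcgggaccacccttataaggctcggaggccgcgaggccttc
The core spans bases −66 to −58 and the AP-1 site bases −66 to −60 from the start. Either strand of a start window held the core in 13.3% and the AP-1 site in 7.71% of the 35116 windows.
At D4 the GSTP1 arrays gave −4.39, −4.88, −4.67 and −5.15, with replicate 2 not well above background. At D30 + DMSO they gave −3.08, −3.37, −3.92 and −3.95, so that all 4 lay above every D4 array. GSTP1 rose 2.28-fold between these stages (log2 difference 1.19, SE 0.26, adjusted p = 0.00103 in limma). The call was lost with a normexp background correction, at a difference of 0.62, with the methods' t-test, at an adjusted p of 0.0171, and without replicate 1 of D30 + DMSO, at a limma adjusted p of 0.00547. Between D4 and D15 the difference was 0.54 (95% interval −0.0004 to 1.09), on DMSO addition 0.43 (−0.11 to 0.97) and on removal −0.45 (−0.99 to 0.09). None of these single steps passed.

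GSTK1, the kappa class enzyme, had 2 probes at chr7:143263441-143269115 which moved alike. The brighter probe had means of 5.43, 6.04, 5.87, 6.27 and 5.52 in the order of the conditions, and the other 2.11, 2.85, 2.76, 3.03 and 2.37. After DMSO removal the arrays of the brighter probe gave 5.70, 5.52, 5.67 and 5.19, all below those of D30 + DMSO at 6.35, 6.18, 6.55 and 6.02. The 2 probes gave differences of −0.75 (SE 0.16, adjusted p = 0.0021 in limma) and −0.67 (SE 0.15, adjusted p = 0.00283), both under 2-fold. From D4 to D30 + DMSO they gave 0.84 and 0.93, 1.79-fold and 1.90-fold.

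GSTZ1 encodes the zeta class enzyme, also known as maleylacetoacetate isomerase of tyrosine breakdown, and lies at chr14:77321036-77331597. The arrays of D30 − DMSO gave 1.01, 0.99, 0.92 and 1.02. At D30 + DMSO they gave 1.84, 1.72, 2.05 and 1.78. At D34 ± DMSO they gave 0.88, 0.62, 0.88 and 0.99. The arrays with DMSO lay above every array of the other conditions, of which the highest was replicate 3 of D15 at 1.21. On DMSO addition the difference was 0.86 (SE 0.14, adjusted p = 0.000257 in limma), 1.82-fold. On removal GSTZ1 fell 2.01-fold (log2 difference −1.01, SE 0.14, adjusted p = 4.25e-05 in limma), so this call lay just past the fold threshold while the addition lay just under it. Within slides the fall was −0.90 on slide 3 and −0.93 on slide 4. The call was lost on fold alone under 5 other settings, among them the slide as a block (−0.93), and without replicate 3 of D30 + DMSO (−0.94) or replicate 2 of D34 ± DMSO (−0.93). From D4 to D30 + DMSO GSTZ1 rose 2.63-fold (log2 difference 1.40, adjusted p = 2.47e-07 in limma).

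GSTO1 encodes the omega class enzyme, which reduces dehydroascorbate and methylated arsenic compounds. RefSeq places the gene at chr10:104254173-104267455, and the start window given for it holds the antioxidant response element core, shown in capitals. That window lies within the span of the gene and not upstream of its first base. The 250 bases are chr10:104254642-104254891 of GRCh38.p14, plus strand:
GSTO1: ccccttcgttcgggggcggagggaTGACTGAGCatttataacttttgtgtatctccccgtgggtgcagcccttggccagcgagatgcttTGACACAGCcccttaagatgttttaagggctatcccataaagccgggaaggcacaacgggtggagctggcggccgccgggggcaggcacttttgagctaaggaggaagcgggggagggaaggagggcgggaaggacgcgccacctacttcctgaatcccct
The matches begin at bases −226 and −161 from the start of that window. Among the other members the same core was found once in the windows of GSTA4 and of MGST1 and was not found in those of GSTM3, GSTM4, GSTK1 and GSTZ1. MGST1 had 3 windows, and its match lay after the start, at bases 31 to 39. A match says only that the letters are there.
The GSTO1 arrays gave 3.63, 4.16, 4.23 and 3.74 at D4. They gave 4.70, 4.69, 4.57 and 4.42 at D30 − DMSO. At D30 + DMSO they gave 5.07, 5.04, 5.23 and 5.03, above every array of D4, D15 and D30 − DMSO. At D34 ± DMSO they gave 5.13, 4.88, 5.27 and 4.51, which overlapped both conditions of day 30.
DMSO addition gave a difference of 0.50 (SE 0.16, adjusted p = 0.0406 in limma), which passed neither threshold. Removal gave −0.14 (95% interval −0.49 to 0.20, adjusted p = 0.636 in limma). Within slides it gave 0.15 on slide 3 and −0.62 on slide 4. D34 ± DMSO differed from D30 − DMSO by 0.36 (adjusted p = 0.302 in limma). GSTO1 rose 2.22-fold from D4 to D30 + DMSO (log2 difference 1.15, adjusted p = 1.35e-05 in limma) and by 1.01 to D34 ± DMSO.

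MGST1 encodes the microsomal enzyme, a membrane protein of the endoplasmic reticulum and mitochondria that also has peroxidase activity, and the gene lies at chr12:16347115-16593331. The D30 − DMSO arrays were the tightest group of this gene, at 6.10, 6.12, 6.13 and 6.15. At D30 + DMSO they gave 6.71, 6.77, 6.91 and 6.81, above all other arrays. At D34 ± DMSO they gave 6.46, 6.32, 6.56 and 6.23, between the 2 conditions of day 30 and overlapping neither.
On DMSO addition the difference was 0.68 (SE 0.12, adjusted p = 0.000516 in limma), 1.60-fold. On removal it was −0.41 (SE 0.12, adjusted p = 0.0199), and against D30 − DMSO the D34 ± DMSO cells differed by 0.27 (95% interval 0.01 to 0.52, adjusted p = 0.286 in limma). MGST1 rose 2.35-fold from D4 to D30 + DMSO (log2 difference 1.23, adjusted p = 1.35e-07 in limma).

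**Figure D2:**
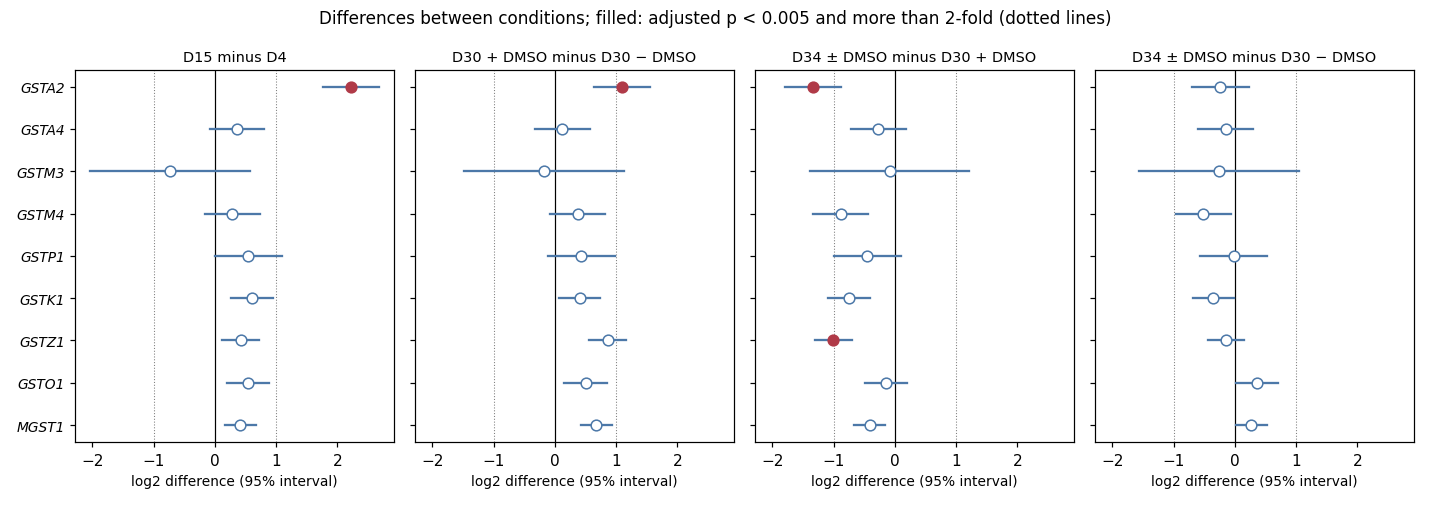
The x axis gives the log2 difference between 2 conditions with its 95% interval for the 9 genes, in 1 panel per comparison. Filled points passed an adjusted p below 0.005 with more than 2-fold, and dotted lines mark 2-fold. GSTA2 alone passed for D15 minus D4 and for DMSO addition, GSTA2 and GSTZ1 passed for removal, and no gene passed between D34 ± DMSO and D30 − DMSO.

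Set side by side, the median log2 difference of the 9 members was 0.42 from D4 to D15, against 0.04 over all genes tested. On DMSO addition it was 0.43 against 0.04, with 8 of 9 means higher, as were 54.7% of all genes, and GSTM3 the exception at −0.17. The GSTM3 difference was above 0 with normexp (0.06) and with the slide (0.06) or the scan session (0.18) as a block. On removal the median was −0.45 against −0.07, and 5 members had every array below every D30 + DMSO array, as had 12.7% of all genes. GSTM3 differed on removal by −0.09 (95% interval −1.39 to 1.22), and by 0.13 within slide 3. The addition and removal steps share the D30 + DMSO arrays, so these values are not independent of each other. At an adjusted p below 0.005 with any fold, 3 members (GSTA2, GSTZ1 and MGST1) passed on addition, against 9.51% of all genes, and 4 (GSTA2, GSTM4, GSTK1 and GSTZ1) on removal, against 11.8%. Over the other settings that keep all arrays, the first count ran from 2 to 4 and the second from 1 to 5. With the slide as a block GSTP1 joined both, at limma adjusted p of 0.00461 and 0.00354. GSTM4 left the second with quantile normalization (adjusted p = 0.0154), the authors' matrix (0.0139), no filter on dim probes (0.00988), the methods' t-test (0.0109) or a fit of the 2 conditions alone (0.00653). Over the whole protocol, D4 to D30 + DMSO, 5 of 9 members rose (GSTA2, GSTP1, GSTZ1, GSTO1 and MGST1), against 18.3% of all genes called and 9.10% higher. From D15 to D30 + DMSO none passed both thresholds, against 6.44% of all genes, with GSTA2 at 0.96, GSTZ1 at 0.97 and MGST1 at 0.82.

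In rank order of their condition means, 6 of the members (GSTA2, GSTA4, GSTM4, GSTP1, GSTK1 and GSTZ1) had D30 + DMSO first and then an order of the remaining conditions in which neighbours mostly overlapped. GSTO1 and MGST1 had D30 + DMSO first, then D34 ± DMSO and D30 − DMSO, and D4 last, an order whose neighbouring levels did not pass the test. GSTM3 had the reverse start, with D4 first. Among neighbours the fall from D34 ± DMSO to D4 of GSTA2, 1.85 on the log2 scale, was the only one that passed both thresholds.

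Over the 20 arrays the member pair with the highest correlation was GSTO1 with MGST1 (r = 0.92), followed by GSTA2 with MGST1 (r = 0.86) and GSTA2 with GSTO1 (r = 0.85). GSTM3 correlated with GSTA2 at r = −0.35. The 20 arrays share 5 conditions, and these values describe the arrays only. Among 14084 named genes, the one most like GSTA2 was its relative GSTA5 (r = 0.996), then TST (r = 0.987) and RBP5 (r = 0.982). GSTM4 was most like its relative GSTM1 (r = 0.988). In both cases the partner is a close relative in sequence, and shared hybridisation was not tested. For GSTZ1 the leading partner was DCAF11 (r = 0.98), for MGST1 CYP2J2 (r = 0.98), for GSTO1 SCCPDH (r = 0.973), for GSTP1 LINC01816 (r = 0.956), for GSTK1 CTSF (r = 0.953), for GSTA4 FBXO8 (r = 0.952) and for GSTM3 PABPC3 (r = 0.916).

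Of the other glutathione transferases, 11 of 14 genes were measured. From D4 to D15 GSTA5 (log2 difference 2.20) and GSTT1 (1.07) of the theta class rose. On DMSO addition GSTA5 (1.21, adjusted p = 0.0012 in limma) and the near-identical theta class pair GSTT2 (1.13, adjusted p = 0.000297) and GSTT2B (1.16, adjusted p = 0.00103) rose. The same 3 fell on removal, by 1.47, 1.25 and 1.26. GSTT2 and GSTT2B may share signal, as may GSTA5 and GSTA2 (r = 0.996 over the 20 arrays), so neither pair was counted as separate evidence. How much of the GSTA5 signal comes from transcripts of GSTA1 or GSTA2 was not tested. MGST2 and MGST3, the microsomal relatives of MGST1, differed by −0.05 and −0.16 on addition.

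Of the 6 genes listed for glutathione synthesis and the supply of its precursor cysteine, GCLC and CTH rose with DMSO and fell after it. GCLC, the catalytic subunit of the rate-limiting ligase, went from 2.56 to 3.76 on the log2 scale and back to 2.41 (differences 1.19 and −1.35, adjusted p = 0.00149 and 0.000413 in limma). GCLM, the modifier subunit of the same enzyme, differed by 0.18 and 0.16. CTH, which releases cysteine from cystathionine, differed by 1.43 and −1.12. SLC7A11, the cystine importer, fell by 1.72 from D4 to D15 and did not pass on the DMSO steps. The median difference of the 6 genes was 0.25 on addition and −0.07 on removal, where all genes had 0.04 and −0.07.

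Of 7 measured genes for glutathione reduction and peroxidases, GPX2, a peroxidase of the gut epithelium, rose with DMSO by 1.93 (adjusted p = 3.31e-05 in limma), and its difference on removal was −0.51 (adjusted p = 0.188). GPX3, the secreted peroxidase, fell by 1.10 on removal after a difference of 0.42 on addition. GLRX, GPX2 and GPX3 had risen from D4 to D15. Among 13 measured genes for export and breakdown of the conjugates, NAT8, which acetylates cysteine conjugates to mercapturic acids, rose by 2.98 from D4 to D15, fell by 1.56 with DMSO and rose by 1.46 after its removal. GGT5, a gamma-glutamyl transferase, fell by 1.01 with DMSO.

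**Figure D3:**
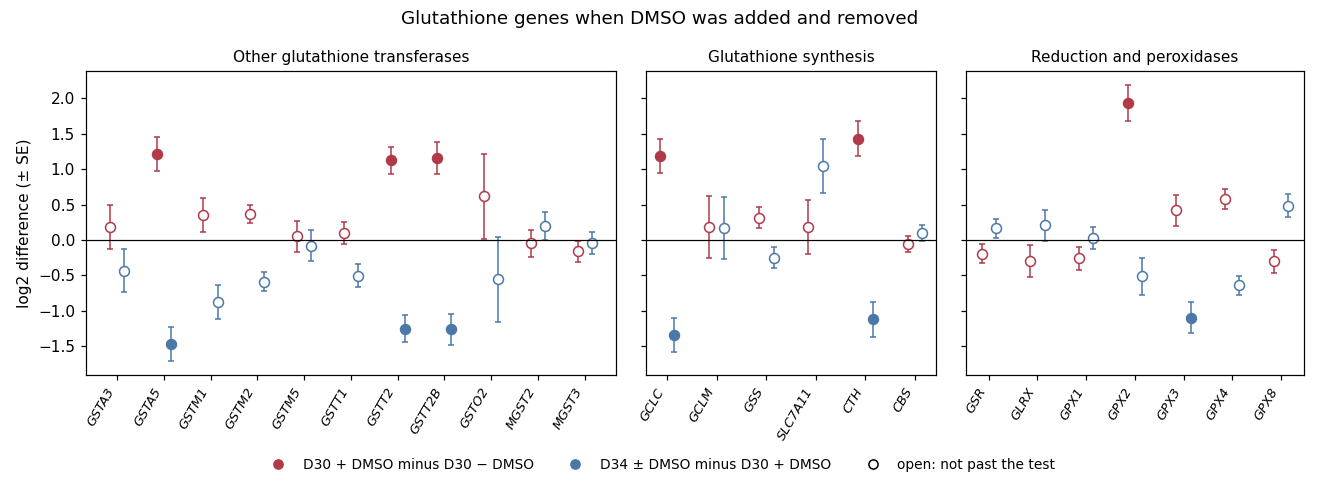
The y axis gives the log2 difference ± SE from the fit for each measured gene of 3 groups, in red for D30 + DMSO minus D30 − DMSO and in blue for D34 ± DMSO minus D30 + DMSO. Filled points passed the test. GSTA5, GSTT2, GSTT2B, GCLC and CTH are filled above 0 in red and below 0 in blue, GPX2 is filled on addition only and GPX3 on removal only.

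Among the genes for transcription factors known to act on glutathione transferase genes, NR1I2, NR1I3, CEBPA and HNF4A rose from D4 to D15. At D4 no array measured HNF4A well above background. NR1I3, the constitutive androstane receptor, had a difference of 2.43 on DMSO addition (adjusted p = 0.000264 in limma) and −2.04 on removal (adjusted p = 0.00106). NR1I2, the pregnane X receptor, differed by 1.04 on addition (adjusted p = 0.00839). MAFF, a small partner of NRF2, fell by 1.57 on addition, and JUN fell by 1.36 on removal. The NRF2 gene NFE2L2 itself did not pass the filter on dim signals. HNF4A did not pass on either DMSO step.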

How the data were processed

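The authors deposited the Agilent Feature Extraction output of each array (version 10.7.1.1 in the file headers, 10.7.3.1 in the submitters' processing notes). The processed signal in it is a spot intensity from which the software took background and spatial trend, without scaling between arrays. The authors deposited in the same files the median intensities of spots and background and flags for well above background, saturation and outliers. The matrix that the authors deposited beside them holds log2 values against a baseline, whose centring is not stated and which served as an alternative. All 20 arrays are from the HepaRG line, grouped by the labels, with 4 replicates in each condition. The paper's methods call these independent biological replicates.

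Spots of a probe were averaged without outlier spots, the signal was scaled to the 75th percentile of the array, floored at 1 and logged to base 2. The 75th percentile was 407 to 766 intensity units. Between 61.1% and 74.2% of the spots of an array were well above background, and the number of arrays limits the precision. A probe was kept if some condition had it well above background on each of its 4 arrays, which left 26344 of 42405. Accessions gave a symbol for 24826 probes through RefSeq (GRCh38.p14), and a gene was read by its kept probe with the highest mean. One limma 3.58.1 model in R 4.3.3 (with the data.table package, version 1.17.8) with 5 condition means was fitted over 20 arrays. Comparisons used Benjamini-Hochberg adjustment over all probes tested, with cutoffs of 0.005 and 2-fold, and the F-test used Bonferroni adjustment with cutoffs of 0.001 and 3-fold, after the thresholds of the methods. limma took the place of the methods' t-test and ANOVA, which were alternatives. The code was tested on simulated data.

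The members and gene lists were chosen with earlier results of these data known. The text names all members, up to 4 called genes of each other list in a comparison, further members of small groups chosen after their values were seen, and the genes that correlate best with a member. Alternatives covered scaling, background correction, floor, filter, probe choice, slide, scan session, replicate block, the arrays fitted, the test, the threshold and each array left out. Start windows run from 250 bases before to 50 after a start, and those of all 10 members were found. GSTA1 has no probe by accession and was left out, as was a planned GSTA1 to GSTP1 ratio. Same-numbered replicates deviated from their condition means with correlations of −0.33 to 0.80, so the numbers were not taken as pairs. Arrays that shared a slide deviated together across conditions, with correlations of 0.12 to 0.80 (median 0.39) against a median of −0.18 between slides. The fit used for the results has no slide term, and the slide as a block was an alternative.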

Additional observations from a re-analysis of the deposited data

Results flagged for a closer look

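Of 55 groups of 4 arrays, 1 for each member probe and condition, 3 held an array that lay apart from the others by Dixon's test, and chance gives about 1 in 20. GSTA4 stood at −0.17 in replicate 3 of D30 − DMSO, higher than the remaining arrays there at −0.32 to −0.30. GSTM3 stood at −3.94 in replicate 4 of D15, below the others at −3.08 to −2.91. GSTP1 stood at −4.73 in replicate 4 of D34 ± DMSO, below the others at −3.88 to −3.76.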

How the results depend on the processing

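The alternatives were followed for the 25 member differences with a limma adjusted p below 0.05 in the fit used for the results. None of them changed sign, though GSTP1 had no value under the filter on all 20 arrays. These differences were picked for being clear in the same data, so a change of sign was unlikely from the start. Other differences did change sign, among them that of GSTM3 on DMSO addition (−0.17, against 0.06 with normexp, 0.06 with the slide and 0.18 with the scan session as a block). That of GSTP1 between D34 ± DMSO and D30 − DMSO (−0.02, against 0.01 with the authors' matrix or the slide as a block) did too. Neither of these was called. Signs of such differences with 1 array left out are not listed here. On DMSO addition the count of members called, 1 (GSTA2), was 0 with the methods' t-test and 0 when replicate 4 of all conditions was left out, an alternative chosen after seeing the data. Leaving out 1 array gave 0 to 1, with 0 without replicate 4 of D30 − DMSO or replicate 3 of D30 + DMSO. On removal the count of 2 became 1 with quantile normalization, normexp, the authors' matrix, the slide or the scan session as a block (GSTZ1 lost each time) and with the methods' t-test (GSTA2 lost, adjusted p = 0.0147). Leaving out 1 array gave 1 to 2, with 1 without replicate 3 of D30 + DMSO or replicate 2 of D34 ± DMSO. From D15 to D30 + DMSO the count of 0 became 1 (GSTZ1) without replicate 4 of all conditions, and leaving out 1 array gave 0 to 1, with 1 without replicate 3 or 4 of D15 or replicate 2 of D30 + DMSO. From D4 to D30 + DMSO the count of 5 became 4, without GSTP1, with normexp, with the methods' t-test and without replicate 1 of D30 + DMSO. The count of members changed over the 5 conditions, 1, became 0 without replicate 4 of all conditions. In these cases the cause was not tested. With the replicate number as a block, 1 member was called on DMSO addition, 2 on removal and 6 from D4 to D30 + DMSO, where GSTM3 (−1.27, adjusted p = 0.000862 in limma) joined the 5. The pairing rests on numbers only, since same-numbered replicates did not all deviate together. The block moved no count of members by over 1.5 times. GSTM3 and GSTP1 are dim, and a filter for signal well above background on all 20 arrays left neither of them a value. The planned GSTA1 minus GSTP1 result and its alternatives were not run, because no probe of GSTA1 was found.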
